A study of Mus musculus with 9 samples.

Results

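The 10 genes described here carry out or control MHC class I antigen presentation in the mouse: H2-K1, H2-D1, B2m, Tap1, Tap2, Tapbp, Psmb8, Psmb9, Psmb10 and Nlrc5. They were taken as a named list, and all 10 were found by symbol among the 22396 genes whose counts were deposited under Ensembl identifiers. The study asked which RNAs are recovered with RIG-I, a cytosolic sensor of RNA, when cells lack OSGEP, an enzyme that modifies tRNAs that read codons starting with A. B16F10 is a mouse melanoma cell line, and every group stably expressed FLAG-tagged RIG-I together with a stable shRNA. The shRNA was a control (shCtr, given as wild type in the labels) or 1 of 2 sequences against OSGEP (shOSGEP#1 and shOSGEP#2, given as knockdown). FLAG-tagged RIG-I was immunoprecipitated from lysates, and the RNA bound to it was depleted of ribosomal RNA and sequenced as stranded libraries, an assay known as RIP-seq. There were 9 libraries, with 3 replicates per group that the methods describe as independent experiments, all from 1 cultured line. Total RNA of the lysates was not analysed here, so the amount of an mRNA in the cell and its recovery with RIG-I cannot be told apart.

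Class I molecules show peptides from inside the cell to cytotoxic T cells. The proteasome makes these peptides, the TAP transporter carries them into the endoplasmic reticulum, and there tapasin and its partners load them onto a heavy chain paired with beta-2-microglobulin. Interferons raise most genes of this pathway, NLRC5 is their transcriptional coactivator, and B16 melanoma cells are known for low surface class I that interferon gamma can raise.

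Total counts in replicates 1, 2 and 3 were 40333037, 47750758 and 41805753 for shCtr, and 34551436, 50224299 and 30697653 for shOSGEP#1. For shOSGEP#2 they were 25460689 in replicate 1, 568995 in replicate 2 and 14914731 in replicate 3. The second shOSGEP#2 library was therefore far shallower than the other 8, with counts on 4196 genes where the others had 11733 to 13958. It is reported apart below and entered neither the group means nor the fit of 8 libraries, so shOSGEP#2 rested on 2 libraries there, and results of the alternatives that took in all 9 libraries are named as such. Levels are given as CPM, counts scaled to the same total in every library. A floor of 3 counts corresponded to 0.0597 to 0.201 CPM in the 8 deeper libraries and to 5.27 CPM in the shallow one. These floors reflect counting error alone, because reads were not tagged with molecular identifiers and need not be separate molecules.

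Osgep, the target of both shRNAs, stood at 19.1, 19.9 and 15.5 CPM in shCtr replicates 1, 2 and 3. It stood at 3.76, 1.15 and 1.53 CPM in shOSGEP#1 replicates 1, 2 and 3, and at 0.0786 and 2.88 CPM in shOSGEP#2 replicates 1 and 3. Every shOSGEP library lay well below every shCtr library, as the labels state. The log2 fold changes were -3.10 (SE 0.73) for shOSGEP#1 and -3.84 (SE 0.93) for shOSGEP#2, with edgeR adjusted p of 0.0128 and 0.0150, which did not pass the threshold of 0.01 used here. Ddx58, which encodes RIG-I, stood at 179.9, 184 and 278 CPM in shCtr, at 232, 216 and 327 CPM in shOSGEP#1 and at 402 and 429 CPM in shOSGEP#2. In edgeR its log2 fold change was 0.26 for shOSGEP#1 (adjusted p = 0.427) and 0.86 for shOSGEP#2 (adjusted p = 0.0239), so it passed for neither shRNA, although both shOSGEP#2 libraries were higher than all others. Whether counts of Ddx58 include the FLAG-tagged construct cannot be told apart from these values.

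The label of the list held in the data with 1 exception. Of the 10 genes, 9 were counted in all 8 deeper libraries and passed the filter on low counts, which kept 12744 of the 22396 genes. Psmb8 had 0, 0 and 1 counts in shCtr, 0 in each shOSGEP#1 library, and 4 and 0 counts in shOSGEP#2 replicates 1 and 3, and it was not tested. Markers of the line itself were abundant: 7 melanocyte markers summed to 6336, 6039 and 8473 CPM in shCtr, with Tyrp1 highest at 1942, 1953 and 2999.9 CPM.

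In the comparison of shOSGEP#2 with shCtr, 5 of the 9 tested class I genes were called higher and none lower. These were H2-K1, H2-D1, Tap1, Tap2 and Nlrc5. A call means an adjusted p under 0.01 in edgeR's quasi-likelihood test, adjusted over all 12744 genes by the Benjamini-Hochberg method. Over all tested genes, 721 (5.66%) were called higher and 496 (3.89%) lower. The median log2 fold change was 1.33 over the 9 class I genes and -0.06 over all tested genes. Scaling by library totals in place of TMM, which sets library sizes from genes without extreme ratios, moved the share of higher calls among all calls from 59.2% to 70.6%, and called the same 5 class I genes. With the shallow library in the fit, edgeR called 0 of 12337 genes and none of the class I genes. In that fit 1240 genes and 3 of the 9 class I genes had an unadjusted p under 0.05, while 2 other tools, DESeq2 on the 8 deeper libraries and voom on 9 libraries weighted by quality, each called the same 5 class I genes.

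In the comparison of shOSGEP#1 with shCtr, edgeR called 0 of the 9 tested class I genes. Over all tested genes it called 637 (5.00%) higher and 595 (4.67%) lower. At an unadjusted p under 0.05 there were 4 class I genes, H2-D1, B2m and Tap2 with positive and Tapbp with negative log2 fold changes, and 4450 genes in all. DESeq2 and voom each called 2 class I genes, H2-D1 and B2m, both higher. H2-D1 also passed in edgeR without shOSGEP#1 replicate 1 (adjusted p = 0.00403). The median log2 fold change was 0.42 over the 9 class I genes and 0.00 over all tested genes.

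The shRNAs were also compared directly, in a contrast that shares its shOSGEP#2 libraries with the one above. In this comparison of shOSGEP#2 with shOSGEP#1, 5 of the 9 class I genes were called higher and none lower: H2-K1, H2-D1, Tapbp, Psmb9 and Nlrc5. Over all tested genes, 794 (6.23%) were called higher and 581 (4.56%) lower. The median log2 fold change was 1.04 over the 9 class I genes and -0.04 over all tested genes. DESeq2 called 7 of the 9, adding Tap1 and Tap2. H2-K1 and Nlrc5 were called whichever of the 8 libraries was left out, and the other calls depended on single libraries, as given with each gene. In a fit of only these groups H2-D1, Tapbp and Psmb9 were not called, with edgeR adjusted p of 0.0248, 0.0126 and 0.0325. With the replicate number as a block, edgeR did not call H2-D1 or Psmb9.

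**Figure D1:**
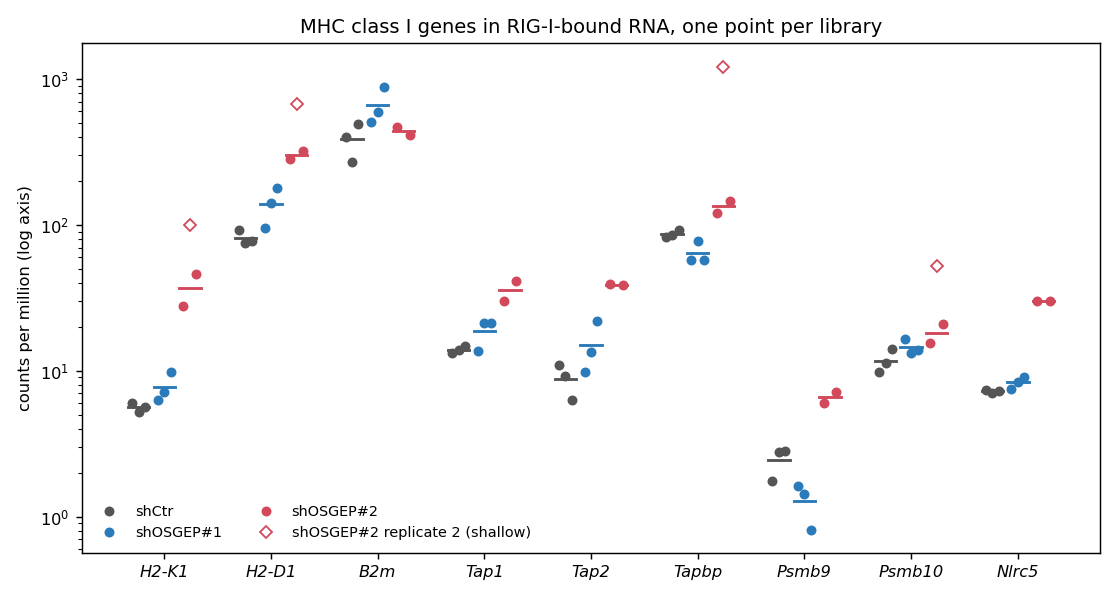
Levels of the 9 tested class I genes in each library, in CPM on a log axis, with a bar at the mean of each group over the 8 deeper libraries. Open diamonds mark the shallow shOSGEP#2 replicate 2 where it had counts, and filled shOSGEP#2 points lie above all other filled points for 7 of the 9 genes, the exceptions being B2m and Psmb10.

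H2-K1 (ENSMUSG00000061232) encodes a classical heavy chain, the membrane-bound subunit that holds the peptide. It was counted at 6.0, 5.21 and 5.65 CPM in shCtr replicates 1, 2 and 3, at 6.28, 7.15 and 9.77 CPM in shOSGEP#1 replicates 1, 2 and 3, and at 27.9 and 46.1 CPM in shOSGEP#2 replicates 1 and 3. Both shOSGEP#2 libraries lay far above the other 6 and differed between themselves, while the shOSGEP#1 libraries lay just above the shCtr libraries without overlap. The mean rose from 5.62 ± 0.393 CPM (SD, n = 3) in shCtr to 37.0 ± 12.8 CPM (SD, n = 2) in shOSGEP#2, a log2 fold change of 2.61 (SE 0.28, edgeR adjusted p = 0.000206) or 6.13-fold. Against shOSGEP#1 the log2 fold change of shOSGEP#2 was 2.17 (SE 0.27, edgeR adjusted p = 0.000416). For shOSGEP#1 against shCtr it was 0.45, with a 95% interval from -0.10 to 0.99 (edgeR adjusted p = 0.229). H2-K1 had the largest fold change of the list with shOSGEP#2.

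H2-D1 (ENSMUSG00000073411), the other classical heavy chain gene of the list, was counted at 92.3, 74.8 and 77.2 CPM in shCtr, at 95.9, 141 and 179 CPM in shOSGEP#1 and at 286 and 320.3 CPM in shOSGEP#2. The groups formed 3 steps without overlap, although the lowest shOSGEP#1 library was close to the highest shCtr library. With shOSGEP#2 its mean rose from 81.4 ± 9.51 CPM (SD, n = 3) to 303 ± 24.6 CPM (SD, n = 2), a log2 fold change of 1.80 (SE 0.23, edgeR adjusted p = 0.000459) or 3.48-fold. The log2 fold change for shOSGEP#1 was 0.76 (SE 0.21, 95% interval 0.30 to 1.21, edgeR adjusted p = 0.0239), with all 3 libraries above shCtr and no call. Between the shRNAs it was 1.04 (SE 0.23, edgeR adjusted p = 0.00757). That call passed without shOSGEP#1 replicate 3, and was lost when any other 1 of the 8 libraries was left out, with edgeR adjusted p of 0.0123, 0.0147 and 0.0125 without shCtr replicates 1, 2 and 3. Without shOSGEP#1 replicates 1 and 2 the edgeR adjusted p were 0.0137 and 0.0244, and without shOSGEP#2 replicates 1 and 3 they were 0.0190 and 0.0440.

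B2m (ENSMUSG00000060802) encodes beta-2-microglobulin, the small subunit that every class I heavy chain needs to reach the cell surface. It was counted at 402, 272 and 493 CPM in shCtr, at 511, 596 and 887 CPM in shOSGEP#1 and at 472 and 416 CPM in shOSGEP#2. B2m did not follow the heavy chains: both shOSGEP#2 libraries fell within the shCtr range, and the 3 shOSGEP#1 libraries were the highest. Its log2 fold change with shOSGEP#2 was 0.10, with a 95% interval from -0.51 to 0.70 (edgeR adjusted p = 0.829). With shOSGEP#1 it was 0.76 (SE 0.25, 95% interval 0.21 to 1.31, edgeR adjusted p = 0.0490), which did not pass 0.01 in edgeR. Between shOSGEP#2 and shOSGEP#1 the log2 fold change was -0.66 (SE 0.28, edgeR adjusted p = 0.112). The sign of the shOSGEP#2 value turned to -0.11 without shCtr replicate 2 and to -0.03 without shOSGEP#2 replicate 1.

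Library shOSGEP#1 replicate 3, the highest for H2-K1, H2-D1 and B2m among the shOSGEP#1 libraries, also had the largest share of counts on the 13 mitochondrially encoded genes. That share was 2.96% there, 0.347% and 0.445% in the other shOSGEP#1 libraries, 0.223%, 0.147% and 0.303% in shCtr and 0.211% and 0.268% in shOSGEP#2. Without that library the log2 fold changes of shOSGEP#1 were 0.24 for H2-K1, 0.53 for H2-D1 and 0.49 for B2m, with edgeR adjusted p of 0.549, 0.0761 and 0.174. The part of the mitochondrial share in these values was not tested.

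Because the heavy chains and B2m pair in equal numbers in the finished molecule, their ratio was computed from CPM per kilobase of transcript. In shCtr the summed H2-K1 and H2-D1 level was 0.102, 0.123 and 0.0702 of the B2m level. The same ratio was 0.0834, 0.103 and 0.0883 for the shOSGEP#1 replicates, and 0.279 and 0.374 for shOSGEP#2 replicates 1 and 3. The shCtr and shOSGEP#1 ratios overlapped, and both shOSGEP#2 ratios lay above all of them. H2-K1 per kilobase was 0.0844 to 0.0950 of H2-D1 in shCtr, 0.0657 to 0.0850 in shOSGEP#1, and 0.127 and 0.187 in shOSGEP#2. H2-D1 thus stayed the more abundant heavy chain in every library.

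Tap1 and Tap2 encode the subunits of the TAP transporter. Tap1 (ENSMUSG00000037321) was counted at 13.3, 13.9 and 14.7 CPM in shCtr, at 13.8, 21.3 and 21.4 CPM in shOSGEP#1 and at 30.2 and 41.4 CPM in shOSGEP#2. Among shOSGEP#1 libraries replicate 1 lay inside the shCtr range and the others above it, and both shOSGEP#2 libraries were higher than all of these. Tap1 rose with shOSGEP#2 by a log2 fold change of 1.26 (SE 0.24, edgeR adjusted p = 0.00409), or 2.39-fold. This call was the least stable of the 5: the edgeR adjusted p was 0.0203, 0.0209 and 0.0130 without shCtr replicates 1, 2 and 3, and 0.0311 without shOSGEP#2 replicate 3. For shOSGEP#1 the log2 fold change was 0.42 (95% interval -0.06 to 0.89, edgeR adjusted p = 0.195). The difference between the shRNAs was 0.84 (SE 0.24, edgeR adjusted p = 0.0266), so a difference between them was not called.

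Tap2 (ENSMUSG00000024339) was counted at 10.9, 9.21 and 6.34 CPM in shCtr, at 9.84, 13.5 and 21.8 CPM in shOSGEP#1 and at 39.3 and 38.8 CPM in shOSGEP#2. The shCtr and shOSGEP#1 libraries overlapped and spread widely, while the shOSGEP#2 libraries agreed closely and stood above both groups. Tap2 rose with shOSGEP#2 by a log2 fold change of 2.05 (SE 0.33, edgeR adjusted p = 0.00159), or 4.15-fold. With shOSGEP#1 the log2 fold change was 0.76 (95% interval 0.11 to 1.41, edgeR adjusted p = 0.0911), with 2 of 3 libraries above all shCtr libraries. The log2 fold change between the shRNAs was 1.29 (SE 0.32, edgeR adjusted p = 0.0154). Without shOSGEP#1 replicate 3, the highest of its group, that difference was called, at 1.66 (edgeR adjusted p = 0.00386). Per kilobase, Tap1 was 1.43 to 2.70 times Tap2 in shCtr, 1.14 to 1.84 times in shOSGEP#1, and 0.895 and 1.25 times in shOSGEP#2, so the ratios overlapped between shOSGEP#1 and each other group.

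Tapbp (ENSMUSG00000024308) encodes tapasin, which bridges TAP and the empty class I molecule. It was counted at 82.1, 84.7 and 93.0 CPM in shCtr, at 57.8, 78.0 and 57.5 CPM in shOSGEP#1 and at 121 and 147 CPM in shOSGEP#2. The groups did not overlap, and their order was unlike that of the heavy chains, with shOSGEP#1 lowest, shCtr between and shOSGEP#2 highest. Neither comparison with shCtr was called, at log2 fold changes of -0.44 for shOSGEP#1 (SE 0.16, edgeR adjusted p = 0.0732) and 0.53 for shOSGEP#2 (SE 0.18, edgeR adjusted p = 0.0547). The comparison of the shRNAs was called, at 0.97 (SE 0.18, edgeR adjusted p = 0.00294), or 1.96-fold. The call was lost without shOSGEP#1 replicate 1 (edgeR adjusted p = 0.0114) and without shOSGEP#2 replicate 3 (edgeR adjusted p = 0.0250), and voom did not make it (adjusted p = 0.0112).

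The last 3 subunits belong to the immunoproteasome, in which Psmb8, Psmb9 and Psmb10 take the places of the constitutive catalytic subunits Psmb5, Psmb6 and Psmb7. Psmb9 (ENSMUSG00000096727) was counted at 1.76, 2.79 and 2.80 CPM in shCtr, at 1.62, 1.43 and 0.814 CPM in shOSGEP#1 and at 6.01 and 7.17 CPM in shOSGEP#2. These levels rest on 71 to 133 counts in shCtr, 25 to 72 in shOSGEP#1 and 153 and 107 in shOSGEP#2. The order of the groups was that of Tapbp, without overlap. Neither comparison with shCtr was called, at log2 fold changes of -0.93 for shOSGEP#1 (SE 0.45, edgeR adjusted p = 0.166) and 1.33 for shOSGEP#2 (SE 0.49, edgeR adjusted p = 0.0762). Between the shRNAs the log2 fold change was 2.26 (SE 0.50, edgeR adjusted p = 0.00813), or 4.80-fold. This call passed without shOSGEP#2 replicate 1 (edgeR adjusted p = 0.00970) and was lost without any other 1 of the 8 libraries, at edgeR adjusted p of 0.0143, 0.0201 and 0.0144 without shCtr replicates 1, 2 and 3. Without shOSGEP#1 replicates 1, 2 and 3 the edgeR adjusted p were 0.0180, 0.0265 and 0.0184, and without shOSGEP#2 replicate 3 it was 0.0213.

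Psmb10 (ENSMUSG00000031897) was counted at 9.87, 11.3 and 14.0 CPM in shCtr, at 16.5, 13.2 and 13.9 CPM in shOSGEP#1 and at 15.6 and 20.8 CPM in shOSGEP#2. The shOSGEP#1 libraries overlapped with both other groups, and both shOSGEP#2 libraries lay above shCtr. The log2 fold changes were 0.29 (95% interval -0.19 to 0.77) for shOSGEP#1 and 0.53 (95% interval -0.00 to 1.06) for shOSGEP#2. With edgeR adjusted p of 0.379 and 0.141, neither was called. Psmb8 (ENSMUSG00000024338) stayed at 0 to 4 counts, or at most 0.157 CPM, where a count of 0 allows up to 0.201 CPM in the shallowest of the 8 libraries, so no change in it was detectable at this depth.

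The constitutive subunits were far more abundant in each of the 8 deeper libraries. Per kilobase, Psmb9 was 0.00539 to 0.0106 of Psmb6 in shCtr, 0.00278 to 0.00676 in shOSGEP#1, and 0.0257 and 0.0236 in shOSGEP#2. Psmb10 was 0.0584 to 0.123 of Psmb7 in shCtr, 0.0903 to 0.113 in shOSGEP#1, and 0.105 and 0.181 in shOSGEP#2. The Psmb9 share was higher in both shOSGEP#2 libraries than in all others, and the Psmb10 shares overlapped between groups.

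Nlrc5 (ENSMUSG00000074151) encodes the coactivator that acts at class I promoters. It was counted at 7.39, 7.10 and 7.22 CPM in shCtr, at 7.50, 8.36 and 9.09 CPM in shOSGEP#1 and at 30.3 and 30.1 CPM in shOSGEP#2. Replicates agreed more closely than for any other gene of the list in shCtr and shOSGEP#2, with coefficients of variation of 2.00% and 0.416%, and both shOSGEP#2 libraries stood far above the rest. Nlrc5 rose with shOSGEP#2 by a log2 fold change of 1.97 (SE 0.21, edgeR adjusted p = 0.000215), or 3.91-fold. It was also higher than in shOSGEP#1, by 1.78 (SE 0.21, edgeR adjusted p = 0.000313). With shOSGEP#1 the log2 fold change from shCtr was 0.19 (95% interval -0.23 to 0.61, edgeR adjusted p = 0.531), although its 3 libraries lay just above the shCtr libraries.

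**Figure D2:**
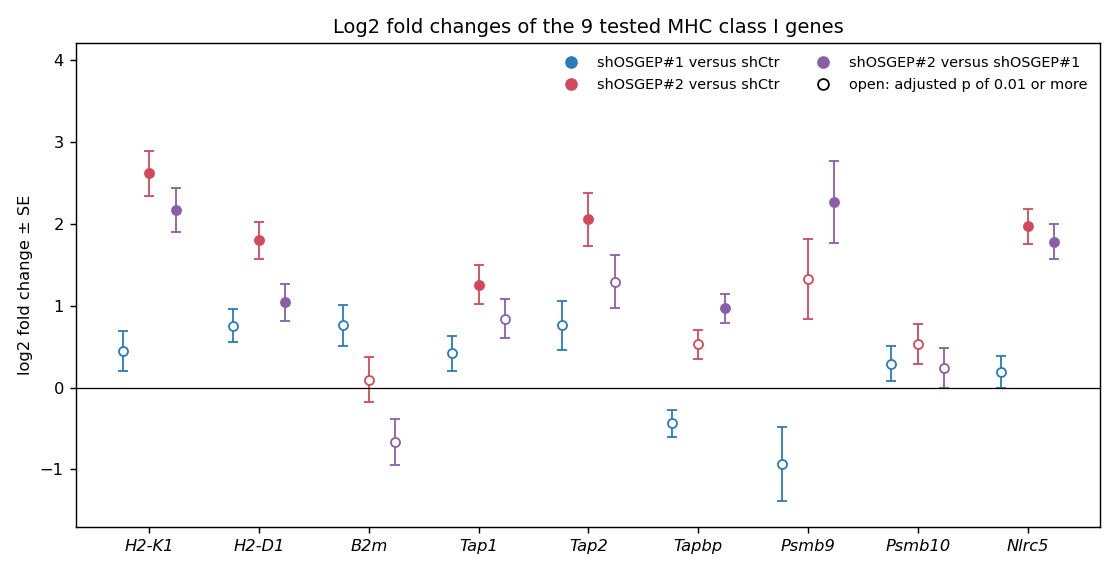
Log2 fold changes of the 9 tested class I genes in the 3 comparisons, with bars of 1 SE, filled where the edgeR adjusted p was under 0.01. With shOSGEP#2 the filled points run from 1.26 for Tap1 to 2.61 for H2-K1, and none of the shOSGEP#1 points is filled.

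To compare levels between genes, CPM was divided by transcript length in kilobases. In shCtr the order ran from B2m at 452 through H2-D1 at 38.7, Tapbp at 29.9, Psmb10 at 8.95, Tap1 at 4.73, H2-K1 at 3.47, Tap2 at 2.56, Psmb9 at 1.81 and Nlrc5 at 0.955 to Psmb8 at 0.00490 CPM per kilobase. Only Tap2 and Psmb9 overlapped among neighbours in that order. The order of the first 7 genes was the same in shOSGEP#1, where Tap1 and H2-K1, H2-K1 and Tap2, and Nlrc5 and Psmb9 overlapped. In shOSGEP#2, H2-K1 moved up to the fourth place at 22.8 CPM per kilobase, behind B2m at 516, H2-D1 at 144 and Tapbp at 46.2. Psmb10, Tap1 and Tap2 followed at 13.9, 12.1 and 11.3 CPM per kilobase without a clear order, since their libraries overlapped. Over the 8 libraries, the highest level was 8.83 times the lowest for H2-K1, 8.81 times for Psmb9 and 2.11 times for Psmb10, and the other 6 tested genes lay between.

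In the shallow shOSGEP#2 replicate 2, only 4 of the 10 genes had counts. Tapbp had 694 counts, or 1219.7 CPM (95% Wilson interval 1132 to 1314), and H2-D1 had 386 counts, or 678 CPM (614 to 749). H2-K1 had 57 counts, or 100.2 CPM (77.3 to 129.8), and Psmb10 had 30 counts, or 52.7 CPM (36.9 to 75.3). All 4 levels were above every shCtr library. B2m had 0 counts where the mean of the other shOSGEP#2 libraries corresponds to 252 counts, and the upper Wilson limit of a 0 there was 6.75 CPM. Tap1, Tap2, Psmb9 and Nlrc5 also had 0 counts, against 20.4, 22.2, 3.75 and 17.2 expected at the same means. Such gaps were common in that library: of 2699 genes with a mean of at least 100 CPM in the other shOSGEP#2 libraries, 751 (27.8%) had 0 counts. Neither its high nor its 0 levels can be read as levels of the group.

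Among 9 tested genes of the 22 listed other class I heavy chains, 1 was called higher with shOSGEP#1 and 1 with shOSGEP#2, and none lower. H2-Q4, a nonclassical heavy chain, stood at 9.30, 7.87 and 7.99 CPM in shCtr, at 9.67, 10.7 and 15.5 CPM in shOSGEP#1 and at 34.8 and 39.4 CPM in shOSGEP#2. Like H2-K1 it was far higher in both shOSGEP#2 libraries, with a log2 fold change of 2.05 (SE 0.24, edgeR adjusted p = 0.000312) from shCtr and 1.55 (SE 0.24, edgeR adjusted p = 0.00114) from shOSGEP#1. Fcgrt, the neonatal Fc receptor, stood at 12.0, 11.3 and 9.86 CPM in shCtr, 19.4, 23.3 and 40.2 CPM in shOSGEP#1 and 16.1 and 22.1 CPM in shOSGEP#2. All 5 deeper shOSGEP libraries were above all 3 of shCtr. Against shCtr it was called for shOSGEP#1 (log2 fold change 1.31, edgeR adjusted p = 0.00670) and not for shOSGEP#2 (0.69, edgeR adjusted p = 0.125), and the shRNAs were not called different (-0.62, edgeR adjusted p = 0.162). In the comparison of the shRNAs 2 of the 9 were called higher in shOSGEP#2, H2-Q4 and H2-M3. H2-M3, a nonclassical heavy chain named after its values were seen, stood at 1.14, 0.984 and 1.10 CPM in shCtr, at 0.926, 0.458 and 0.293 CPM in shOSGEP#1 and at 4.83 and 7.38 CPM in shOSGEP#2. Its groups did not overlap, with shOSGEP#1 lowest. The log2 fold change was 3.35 between the shRNAs (SE 0.64, edgeR adjusted p = 0.00390) and 2.40 from shCtr to shOSGEP#2 (SE 0.62, edgeR adjusted p = 0.0194), which was not called. The median log2 fold change of the 9 genes was 0.63 with shOSGEP#2 and 0.17 with shOSGEP#1.

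Of 13 genes for peptide loading and trimming, all tested, 1 was called higher with shOSGEP#1, and 1 higher and 1 lower with shOSGEP#2. Erap1, the aminopeptidase that trims class I peptides, stood at 3.52, 4.21 and 4.74 CPM in shCtr, at 8.36, 12.6 and 11.1 CPM in shOSGEP#1 and at 14.4 and 18.1 CPM in shOSGEP#2. It rose with both shRNAs, by log2 fold changes of 1.35 (SE 0.26, edgeR adjusted p = 0.00445) and 1.87 (SE 0.28, edgeR adjusted p = 0.00118), and no shOSGEP library overlapped with shCtr. So Erap1 was called for both shRNAs, whereas H2-K1 and Nlrc5 were called for shOSGEP#2 and differed between the shRNAs. Calr, the chaperone calreticulin of the loading complex, stood at 599.6, 536 and 456 CPM in shCtr, at 463, 605 and 594 CPM in shOSGEP#1 and at 282 and 307 CPM in shOSGEP#2. It fell with shOSGEP#2 (log2 fold change -0.94, SE 0.18, edgeR adjusted p = 0.00484) and differed between the shRNAs (-1.0, edgeR adjusted p = 0.00320). The median log2 fold changes of the list were 0.17 and -0.03.

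Among 7 constitutive proteasome subunits and activators, only Psmb5 was called, lower with shOSGEP#1. Psmb5 stood at 185, 209 and 189.6 CPM in shCtr, at 124, 106 and 86.0 CPM in shOSGEP#1 and at 128 and 167 CPM in shOSGEP#2. The log2 fold change was -0.89 (SE 0.16, edgeR adjusted p = 0.00371) with shOSGEP#1, and the shRNAs were not called different (0.40, edgeR adjusted p = 0.137). With shOSGEP#2 edgeR called 0 of these 7 genes, with 1 at an unadjusted p under 0.05, and the median log2 fold change was -0.22.

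Of 25 genes for interferon signalling and class I regulators, 2 were called lower with shOSGEP#1 and 1 with shOSGEP#2. Nfyc, a subunit of the factor that binds the Y box of class I promoters, stood at 60.3, 60.0 and 66.5 CPM in shCtr, at 69.9, 66.3 and 57.6 CPM in shOSGEP#1 and at 14.9 and 19.2 CPM in shOSGEP#2. It fell with shOSGEP#2, by 1.97 on the log2 scale (SE 0.18, edgeR adjusted p = 0.000148), and differed from shOSGEP#1 by -2.01 (edgeR adjusted p = 0.000118). Nfya, another subunit of that factor, named after its values were seen, stood at 69.4, 58.3 and 60.1 CPM in shCtr, at 48.7, 49.8 and 33.2 CPM in shOSGEP#1 and at 104 and 77.4 CPM in shOSGEP#2. It went the other way between the shRNAs, higher in shOSGEP#2 by 0.97 (SE 0.21, edgeR adjusted p = 0.00840), with no call against shCtr. Tyk2, a kinase of interferon receptors, fell with shOSGEP#1 (log2 fold change -1.46, edgeR adjusted p = 0.00285) and differed between the shRNAs (1.67, edgeR adjusted p = 0.00167). Rela, an NF-kB subunit, fell with shOSGEP#1 (-0.72, edgeR adjusted p = 0.00715), with no call between the shRNAs (0.38, edgeR adjusted p = 0.124). The median log2 fold changes of the list were 0.09 and 0.14.

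Of 9 MHC class II genes, 4 passed the filter, and the class II coactivator gene Ciita did not, at 0 to 0.456 CPM. Cd74, the invariant chain of class II, stood at 6.15, 3.62 and 3.61 CPM in shCtr, at 1.19, 1.55 and 3.09 CPM in shOSGEP#1 and at 22.6 and 41.9 CPM in shOSGEP#2. Its groups did not overlap, and shOSGEP#1 was lowest, the order also seen for Tapbp and Psmb9. Cd74 was called higher with shOSGEP#2, by 2.75 (SE 0.42, edgeR adjusted p = 0.00135) against shCtr and by 3.97 (SE 0.45, edgeR adjusted p = 0.000238) against shOSGEP#1. With shOSGEP#2 edgeR called 1 of the 4 class II genes, Cd74. H2-DMa and H2-DMb1 were not called, at log2 fold changes of 1.27 and 0.59 (edgeR adjusted p = 0.0814 and 0.113). H2-Ab1, also not called, averaged 0.0594, 0.122 and 1.96 CPM in shCtr, shOSGEP#1 and shOSGEP#2. It passed the filter through shOSGEP#2, the group where it was high, so the direction of its change is not read as a result. With shOSGEP#1 edgeR called 0 of the 4, at a median log2 fold change of 0.47. The 1 at an unadjusted p under 0.05 was Cd74, which was lower (log2 fold change -1.22, edgeR adjusted p = 0.0486).

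Markers of the melanocyte lineage moved with the same shRNA as the class I genes. All 7 melanocyte markers had counts in the 8 deeper libraries, and they summed to 6288, 7565 and 6839.9 CPM in shOSGEP#1 and to 2617 and 3374 CPM in shOSGEP#2, below the shCtr sums given above. Tyrp1 was the most abundant of them in each of these libraries. With shOSGEP#2, 5 of the 7 were called lower: Tyr, Dct, Pmel, Mlana and Sox10, at log2 fold changes of -3.83, -2.0, -2.06, -1.41 and -0.99. With shOSGEP#1 only Tyr was called lower, at -2.59 (edgeR adjusted p = 0.000560). Dct, Pmel, Mlana and Sox10 differed between the shRNAs, at -2.38, -1.97, -1.46 and -1.04 and a highest edgeR adjusted p of 0.00101. In bulk libraries, fewer cells of a state and less RNA per cell cannot be told apart, and the part of these markers in the class I levels was not tested.

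The 10 leukocyte markers summed to 0.419 to 0.981 CPM in shCtr, 1.10 to 2.28 CPM in shOSGEP#1 and 0.668 and 1.68 CPM in shOSGEP#2, with Cd8a, Itgam, Itgax and Ncr1 at 0 in all of these libraries. Laptm5 was the most abundant in 5 of the 8, at no more than 1.63 CPM, and Cd3e had counts in shOSGEP#2 replicate 3 alone, at 1.68 CPM. Of the 10, 2 were tested and edgeR called 0 for either shRNA, with 0 at an unadjusted p under 0.05. The 9 fibroblast and endothelial markers summed to 4.56, 6.93 and 7.34 CPM in shCtr, to 5.50, 3.74 and 8.01 CPM in shOSGEP#1 and to 16.8 and 35.3 CPM in shOSGEP#2. Both shOSGEP#2 sums were the highest, with Col1a2 leading at 6.91 and 18.1 CPM, Lum at 0 in all 8 libraries and Cdh5 at 0 in both shOSGEP#2 libraries. Of 7 tested, edgeR called 0 for either shRNA against shCtr, with 0 genes for shOSGEP#1 and 2 for shOSGEP#2 at an unadjusted p under 0.05. Between the shRNAs 2 were called higher in shOSGEP#2, the collagen genes Col1a1 (log2 fold change 2.66, SE 0.57, edgeR adjusted p = 0.00750) and Col1a2 (2.85, SE 0.64, edgeR adjusted p = 0.00948). Both shOSGEP#2 libraries were above the other 6 for each of them. These 2 collagen genes thus moved with the class I genes called in that comparison. Of the 7 tested markers, 4 had positive log2 fold changes there. Pecam1, Cdh5 and Kdr had negative ones, at -0.45, -5.56 and -0.67, without a call and at group means of at most 0.787 CPM. The part of the fibroblast and endothelial markers in the class I levels was not tested.

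The genes most like H2-K1 over the 8 libraries, by Pearson correlation of log2(CPM + 1) among 10185 genes with a mean of at least 5 CPM, were Col5a1 (r = 0.992), Chrnb2 (0.990), Stoml1 (0.988), Col4a5 (0.988) and H2-Q4 (0.988). Those most like Tap1 were Lrrc8c (r = 0.988), Trpc1 (0.985), Lman2l (0.984), Enpp4 (0.984) and Tmem43 (0.983). The 8 points form 3 groups with shOSGEP#2 apart, so these values mainly describe a shared gap between groups. Col5a1 averaged 13.2, 17.1 and 92.9 CPM in shCtr, shOSGEP#1 and shOSGEP#2, and Lrrc8c averaged 16.5, 24.9 and 58.4 CPM. H2-Q4 was the only MHC gene among these 10.

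By position, 7 of the 10 genes lie on mouse chromosome 17, in or beside the MHC, with Psmb9, Tap1, Psmb8 and Tap2 side by side, while B2m lies on chromosome 2 and Psmb10 and Nlrc5 on chromosome 8. Among the 5 genes called higher with shOSGEP#2, 4 were on chromosome 17 and Nlrc5 was not. Genes flanking the 10 were chosen after the data were seen, as the 3 nearest tested genes or genes of the list on each side. Of 42 such genes outside the list, 4 were called higher and 2 lower with shOSGEP#2, at a median log2 fold change of 0.05. Over all tested genes 5.66% were called higher and 3.89% lower. Those called higher included H2-Q4, the heavy chain gene described above, and Zbtb22, which has exons that overlap those of Tapbp. With shOSGEP#1 the median of the 42 was 0.19, and 2 were called higher and 2 lower, against 5.00% and 4.67% over all tested genes.

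Some counts may be shared between genes. Tap1 and Psmb9 have exons that overlap on opposite strands, and the libraries were stranded but strand use in counting is not given in the sources used here. Tapbp overlaps Zbtb22 on the same strand, and Zbtb22, named after its values were seen, was itself higher with shOSGEP#2 by 1.20 (SE 0.17, edgeR adjusted p = 0.000828). Tap2, Tapbp, Psmb8 and Nlrc5 also overlap other annotated genes on the opposite strand. The coding sequences of H2-K1 and H2-D1 were identical at 88.3% of aligned bases, and H2-K1 and H2-Q4 at 74.2%. Of the 150-base windows of the H2-D1 transcript, 35 of 1953 (1.79%) also occurred in another gene, H2-Q1, and none did for the other 9 genes. Levels of these paralogs are uncertain as far as the authors' counting could split reads between them.

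OSGEP acts on tRNAs that read codons starting with A, so the share of such codons was computed for each gene. It ran from 17% in Tapbp to 32.8% in B2m, against a median of 27.7% over 21085 genes. B2m was the only 1 of the 10 above that median, and, as noted after the values were seen, it was also the only tested gene of the list whose shOSGEP#2 libraries fell inside the shCtr range. H2-K1, H2-D1, Tap1, Tap2 and Nlrc5 had shares of 22.5%, 21.8%, 21.1%, 18.4% and 24.2%. With 10 genes this is a description, and a relation to the levels was not tested.

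Promoter sequences are shown for H2-K1 and B2m because these genes moved apart, although their products pair. Of the 10 genes, 8 had promoters in a RefSeq table for GRCm38.p6, running from 250 bases before to 50 after the start, and Tap2 and Nlrc5 had no entry. The upstream bases of the table's windows lie wholly within annotated exons for 5 of the 8 genes, H2-D1, Tap1, Tapbp, Psmb8 and Psmb9. Letters were searched on both strands over all 32851 promoters of the table. The first searches were GAAANNGAA, the core of the interferon-stimulated response element, found in 8.56% of promoters, TTCNNNGAA, the gamma-activated site (8.30%), CCAAT, the Y box (37.4%), and TGACGTCA, the cAMP response element (1.79%). Chosen after the sequences were seen were GAANNGAAA, a shifted core that can overlap the first (7.52%), TGACG, which lies inside TGACGTCA (20.8%), and GGGATTCCC, the core of the NF-kB-type enhancer A (0.353%). Capitals mark the matches, read on either strand, so that ATTGG is CCAAT and TTTCACTTC is GAANNGAAA on the opposite strand. The stretches lie at chr17:34000348-34000597 on the minus strand for H2-K1 and chr2:122147437-122147685 on the plus strand for B2m, upstream of the annotated first exon.
H2-K1: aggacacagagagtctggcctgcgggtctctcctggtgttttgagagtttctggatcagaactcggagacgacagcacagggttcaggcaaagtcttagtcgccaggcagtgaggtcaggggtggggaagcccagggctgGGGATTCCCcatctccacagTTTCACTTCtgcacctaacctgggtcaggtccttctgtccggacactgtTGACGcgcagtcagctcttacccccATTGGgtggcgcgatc
B2m: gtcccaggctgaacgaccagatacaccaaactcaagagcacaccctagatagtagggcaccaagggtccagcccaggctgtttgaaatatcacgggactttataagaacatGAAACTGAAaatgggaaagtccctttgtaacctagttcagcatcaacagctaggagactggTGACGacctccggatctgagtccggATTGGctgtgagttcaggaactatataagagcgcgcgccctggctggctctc

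Both stretches held TGACG followed by the Y box letters, H2-K1 also held GGGATTCCC and the shifted core, and B2m held GAAANNGAA. Over the 8 genes with an entry, CCAAT was found in 6 (H2-K1, H2-D1, B2m, Tap1, Tapbp and Psmb9) and TGACG in 5 of these, all but Tapbp. GAAANNGAA was found in B2m alone, TTCNNNGAA in Psmb8 alone, GAANNGAAA and GGGATTCCC in H2-K1 and H2-D1 alone, and TGACGTCA in none. A match describes letters in a window and is not a bound site.

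The same short sites are set side by side for the heavy chains, which rose together with shOSGEP#2 but to different extents, although those of H2-D1 lie in annotated exons. They are from GRCm38.p6 in RefSeq, at chr17:34000429-34000457 (minus strand) for H2-K1 and chr17:35262924-35262952 (plus strand) for H2-D1. These 29 bases were identical at 28 positions, and capitals mark GGGATTCCC and the shifted core.
H2-K1: GGGATTCCCcatctccacagTTTCACTTC
H2-D1: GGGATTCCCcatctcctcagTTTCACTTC

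The stretch from TGACG to the Y box letters, both in capitals, lies at chr17:34000359-34000388 (minus strand) for H2-K1 and chr17:35262993-35263022 (plus strand) for H2-D1 in the same build. Of its 30 bases, 23 were identical between the genes.
H2-K1: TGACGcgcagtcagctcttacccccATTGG
H2-D1: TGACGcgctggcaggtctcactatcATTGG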

How the data were processed

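RNA bound to FLAG-tagged RIG-I was measured in 9 B16F10 libraries, with groups and replicate numbers as the labels give them. The authors demultiplexed reads with bcl2fastq, trimmed them with Trim Galore and used STAR for alignment to GRCm39 and Salmon for the gene quantities. The deposited counts per gene are whole numbers, neither normalized nor pooled. How the listed genes were selected is not given in the sources used here. Total counts ran from 568995 to 50224299. CPM, fold changes and tests were computed from these counts with edgeR 4.0.16 (R 4.3.3), by the quasi-likelihood test across all genes after TMM scaling and filterByExpr, with 1 coefficient per group, 8 libraries and no covariate. Genes were called at p under 0.01 after Benjamini-Hochberg adjustment. Each SE is the absolute log2 fold change over the root of the test's F value. With 2 libraries, shOSGEP#2 borrows its spread from the other groups.

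The members and lists were chosen with earlier results of these data known, among them the depth of shOSGEP#2 replicate 2. Genes named from the other lists are among those past the threshold in either comparison with shCtr or the most abundant gene of a list with none, and a few were named after their values were seen. Lists held 114 genes, 113 of which were matched. Tests were checked on simulated data, where the first limit on recovery was missed and a restated one, for genes of at least 5 CPM, was met. Alternatives were all 9 libraries, RLE scaling, library totals, no filter, a minimum of 10 counts per library, a threshold of 0.05, only the groups compared, the replicate number as a block, DESeq2 1.42.0, voom of limma 3.58.1 with sample quality weights, and leaving out each library. Symbols, lengths, codon shares and gene order came from GENCODE for GRCm38, an earlier build than that of the counts, matched by identifier. Promoters came from RefSeq. Intervals are 95% intervals, by Wilson's method for shares of counts.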

Additional observations from a re-analysis of the deposited data

Results flagged for a closer look

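For 5 genes the effects of the 2 shRNAs differed by the direct test, with shOSGEP#2 above shOSGEP#1. The log2 fold changes were 2.17 for H2-K1, 1.04 for H2-D1, 0.97 for Tapbp, 2.26 for Psmb9 and 1.78 for Nlrc5, with edgeR adjusted p of 0.000416, 0.00757, 0.00294, 0.00813 and 0.000313. Both shOSGEP#2 libraries exceeded all 3 shOSGEP#1 libraries for each of them. With the replicate number as a block, edgeR called only H2-K1, Tapbp and Nlrc5 of these genes. For Tapbp and Psmb9 the 2 effects against shCtr also had opposite signs, and neither of those effects was called. Over all tested genes, 6.23% were called higher in this comparison.

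In shOSGEP#2 replicate 2, the shallow library left out of the fit of 8 libraries, 4 genes lay above every shCtr library and above the floor of 5.27 CPM. H2-K1 stood at 100.2 CPM, H2-D1 at 678 CPM, Tapbp at 1219.7 CPM and Psmb10 at 52.7 CPM, where the highest shCtr levels were 6.0, 92.3, 93.0 and 14.0 CPM. In the same library B2m, Tap1, Tap2, Psmb9 and Nlrc5 had 0 counts, and what set these levels was not tested.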

How the results depend on the processing

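Of 486 recomputed log2 fold changes of the class I genes, 432 kept their direction and their side of the threshold, 36 fell below it and 15 passed it. The other 3 changed sign, all for B2m in shOSGEP#2 against shCtr: -0.47 with all 9 libraries, -0.11 without shCtr replicate 2 and -0.03 without shOSGEP#2 replicate 1, in a range of -0.11 to 0.31 over single libraries left out. With all 9 libraries no gene or class I gene was called in any comparison by edgeR. At an unadjusted p under 0.05 there were then 620, 1240 and 1325 genes, and 0, 3 and 4 class I genes, for shOSGEP#1 and shOSGEP#2 against shCtr and shOSGEP#2 against shOSGEP#1. The common dispersion was 0.420 with the shallow library and 0.0692 without it.

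The following counts are given in the same order of comparisons, against 1232, 1217 and 1375 genes and 0, 5 and 5 class I genes in the fit as reported. An adjusted p under 0.05 gave 2797, 2674 and 2952 genes and 2, 5 and 7 class I genes. DESeq2 gave 2420, 2395 and 2595 genes and 2, 5 and 7 class I genes. Voom with 9 weighted libraries gave 3317, 1012 and 933 genes and 2, 5 and 5 class I genes. Without the filter 1 class I gene, H2-D1, was called for shOSGEP#1. With only the groups compared, 737 genes and 2 class I genes, H2-K1 and Nlrc5, were called between the shRNAs. Leaving out 1 library at a time gave 318 to 1458, 518 to 1471 and 743 to 1504 genes, and 0 to 1, 4 to 5 and 2 to 5 class I genes. The cause of these shifts was not tested, beyond the fewer libraries and the looser threshold themselves. Where 1 shOSGEP#2 library remained, it was assumed to vary like the other groups.

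Same-numbered libraries were not shown to pair, since correlations of their deviations from the group means ran from -0.00337 to 0.180 and 3 of 7 exceeded 0.1. With the replicate number as a block, 1380, 1238 and 1393 genes were called. The class I genes called were then 0, 5 and 3, the last being H2-K1, Tapbp and Nlrc5.

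Low counts limit Psmb8 in every library, the deepest included, and Psmb9 most among the tested genes. In the shallow library any gene under 5.27 CPM falls below the floor, and genes far above it had 0 counts. Since shOSGEP#2 rests on 2 libraries of 25460689 and 14914731 counts, its values are less certain than those of shOSGEP#1.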
